A study of Mus musculus with 16 samples.

Results

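Sike1, Dolpp1, Fbn2, Donson and Ccdc134 were 5 of 18424 genes measured in the adult prefrontal cortex of Arid1b+/- (heterozygous, HT) and wild-type (WT) mice. They were chosen by their measured values: in each, the 4 fluoxetine-treated heterozygotes (HT-Flx) lay above the 4 vehicle-treated heterozygotes (HT-Veh) with no overlap. In that comparison 157 of 16814 genes (0.934%) were higher without overlap, and by unadjusted p the genes stood at places 1, 2, 3, 5 and 6 among the 157. The difference between HT-Flx and HT-Veh is therefore given as a description with no test, and every comparison with HT-Veh or HT-Flx shares samples with that choice.

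All 16 mice were C57BL/6N males whose brains were taken at postnatal day 120, with 4 mice on vehicle (Veh) and 4 on fluoxetine (Flx) in each genotype. Dams of the Flx groups drank fluoxetine hydrochloride at 0.1 mg/ml from postnatal day 3 to 21, so that pups received it in milk, and the water of every dam held 0.2% saccharin, the vehicle. Arid1b encodes a DNA-binding subunit of a chromatin-remodelling complex. The heterozygotes carried 1 germline Arid1b allele in which CRISPR removed the region of exon 5 and left a short insertion, truncating the protein, and the labels do not say which mice shared a dam.

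Fluoxetine blocks the serotonin transporter, and early exposure reaches the brain while cortical circuits mature. The 5 genes belong to different pathways. Sike1 encodes a suppressor of the kinases TBK1 and IKK-epsilon, which switch on interferon genes after viral sensing, and its product is also found with the STRIPAK phosphatase complex. Dolpp1 encodes an enzyme of the endoplasmic reticulum that recycles the dolichol carrier used to attach sugar chains to new proteins. Fbn2 encodes fibrillin-2, a protein of extracellular microfibrils. Donson encodes a protein that works at DNA replication forks, and Ccdc134 encodes a secretory-pathway protein that has been linked to ERK signalling and to the acetyltransferase adaptor ADA2.

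All 5 genes are protein coding in the GENCODE annotation of GRCm38 and lie on 5 different chromosomes. The bases before the first annotated start of Dolpp1, Donson and Ccdc134 are shown so that the promoters of genes chosen for like behaviour can be compared. The promoters of Sike1 and Fbn2 were not examined, so the motif counts do not cover all 5 genes. The sequences are from RefSeq on GRCm38.p6, at chr2:30392004-30392253 (plus strand) for Dolpp1, chr16:91688771-91688978 (minus strand) for Donson and chr15:82127672-82127921 (plus strand) for Ccdc134. Capitals mark matches, read on either strand, to the CCAAT box (CCAAT), the GC box (GGGCGG) and the core of ETS-factor sites (CCGGAAG).
Dolpp1: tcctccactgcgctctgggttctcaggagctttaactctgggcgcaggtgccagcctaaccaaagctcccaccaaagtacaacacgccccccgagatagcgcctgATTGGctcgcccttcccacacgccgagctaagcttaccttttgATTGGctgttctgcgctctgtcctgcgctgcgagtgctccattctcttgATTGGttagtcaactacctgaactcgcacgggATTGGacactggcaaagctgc
Donson: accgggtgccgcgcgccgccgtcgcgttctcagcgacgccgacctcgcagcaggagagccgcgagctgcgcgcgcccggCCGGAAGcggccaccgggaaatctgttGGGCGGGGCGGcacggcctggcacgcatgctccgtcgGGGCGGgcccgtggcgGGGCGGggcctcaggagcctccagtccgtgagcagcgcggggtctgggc
Ccdc134: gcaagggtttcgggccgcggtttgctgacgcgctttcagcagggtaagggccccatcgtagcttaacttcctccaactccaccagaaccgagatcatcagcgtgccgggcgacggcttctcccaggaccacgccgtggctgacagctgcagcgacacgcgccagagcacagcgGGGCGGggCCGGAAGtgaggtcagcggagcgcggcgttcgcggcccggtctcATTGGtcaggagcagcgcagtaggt
The 3 windows held different matches. Dolpp1 had 4 CCAAT boxes, all of them read as ATTGG on the printed strand, and 0.840% of 32851 promoter windows of 250 bases had at least as many, while 33.8% had at least 1. Donson had 4 GC boxes, of which the first pair overlap, and 2.14% of windows of 208 bases had at least as many, while 26.2% had at least 1. Its 1 ETS core was also seen in 4.36% of windows of that length. Ccdc134 had 1 CCAAT box, 1 GC box (32.7% of windows of 250 bases) and 1 ETS core (6.91%). No motif was matched in all 3 windows. TATAAA, the palindromic cAMP response element TGACGTCA and the E-box CACGTG had 0 matches in each.

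The state of the samples was read from Arid1b and from marker genes, and all values are normalized read counts. The targeted gene, Arid1b, stood at 1795 ± 160 in HT-Veh and 1636 ± 61.0 in HT-Flx (SD, n = 4), against 2368 ± 432 in WT-Veh and 2159 ± 233 in WT-Flx, with the lowest WT-Veh mouse (1787) inside the HT-Veh range. The cortical excitatory marker Slc17a7 was abundant in every mouse (32162 to 43463). The mean of 10 olfactory bulb markers on the log2(value + 1) scale, used as a score, was 8.41 to 10.57 in 5 mice (WT-Veh 1, WT-Flx 1, 2 and 4, and HT-Veh 4) and 5.62 to 6.57 in the others. The summed level of these markers ran from 3941 to 23652 in WT-Veh, 5085 to 21823 in WT-Flx, 4626 to 10501 in HT-Veh and 4689 to 6311 in HT-Flx. Eomes, a defining marker of bulb projection neurons, was at 149 to 899 in those 5 mice and at 0 to 25.3 in the rest. A score of 5 striatum markers, taken in the same way, also varied. It ran from 7.46 to 9.60 in WT-Veh and from 8.55 to 9.65 in WT-Flx. In HT-Veh it ran from 7.63 to 10.31, highest in HT-Veh 4, and in HT-Flx from 7.41 to 9.53. In bulk tissue, fewer cells of a type and less RNA per cell cannot be told apart.

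In the heterozygotes, the difference between HT-Flx and HT-Veh was largest for Fbn2 among the 5 genes, at 0.93 ± 0.18 on the log2 scale (limma estimate ± SE). It was 0.58 ± 0.13 for Ccdc134, 0.54 ± 0.089 for Sike1, 0.48 ± 0.091 for Dolpp1 and 0.41 ± 0.091 for Donson. Relative to the WT-Veh mean, Dolpp1 and Fbn2 were low in HT-Veh, at 68.5% and 57.4% of the WT-Veh mean, and stood at 96.1% and 108% of it in HT-Flx. Sike1, Donson and Ccdc134 stood at 88.6%, 94.1% and 85.8% in HT-Veh, and at 129%, 125% and 127% in HT-Flx. The place of Sike1 rested on WT-Veh 1: without that mouse HT-Veh was -0.41 ± 0.074 and HT-Flx 0.14 ± 0.088 from WT-Veh on the log2 scale, nearer to the values of Dolpp1.

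Only in Dolpp1 did the HT-Veh mice lie below all WT-Veh mice, against 1.78% of 16832 genes that were lower without overlap there. Only in Donson did the HT-Flx mice lie above all WT-Veh mice, against 1.91% of 16783 genes, and above all WT-Flx mice, against 2.70% of 16788 genes. Selection on high HT-Flx and low HT-Veh values favours both kinds of separation, so these counts are not read as results.

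**Figure D1:**
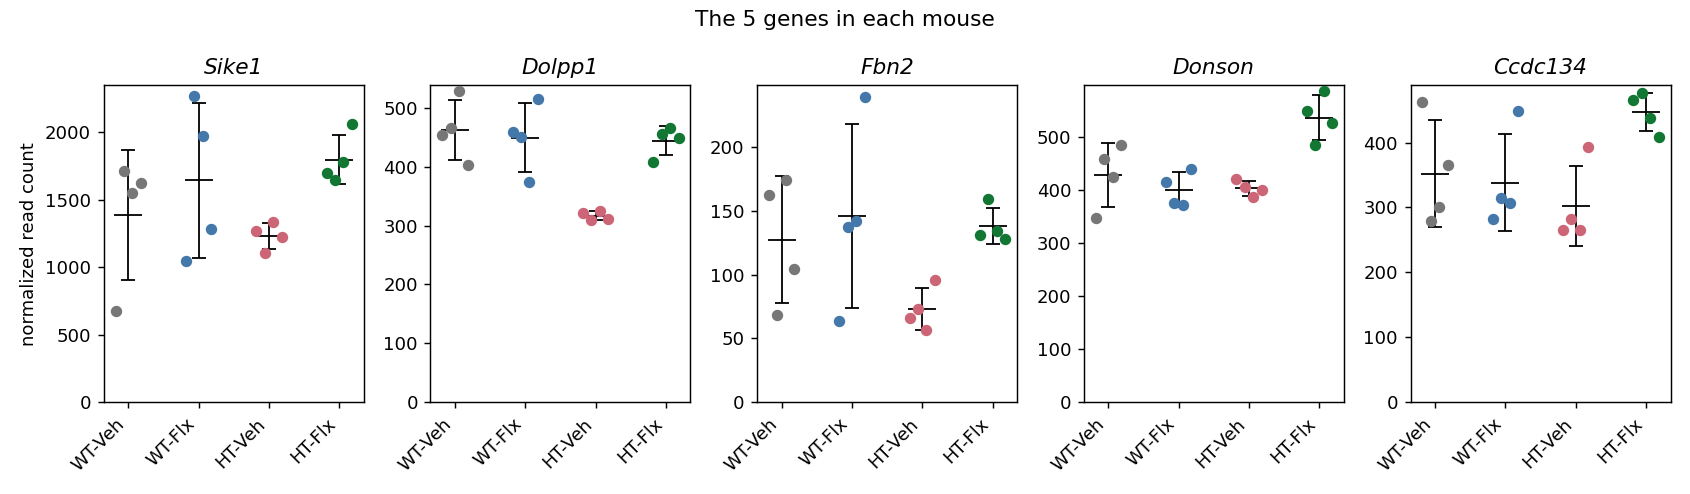
Normalized read counts (vertical axis, linear, from 0) of the 5 genes in each of the 16 mice, by group; points are mice, horizontal bars are group means and error bars are SD (n = 4). HT-Flx lies above HT-Veh in every panel, which is how the genes were chosen; Dolpp1 in HT-Veh (309 to 324) lies below every other mouse, and Sike1 in WT-Veh has 1 mouse at 675 far below the rest.

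Dolpp1 (ENSMUSG00000026856, chr2:30392254-30400529, plus strand) was the gene whose HT-Flx level came nearest to that of WT-Veh. The WT-Veh mice stood at 453, 465, 528 and 403 (mean 462 ± 51.1 SD, n = 4). The HT-Veh mice stood at 322, 309, 324 and 311 (317 ± 7.44), and the HT-Flx mice at 408, 454, 466 and 448 (444 ± 25.2). The HT-Veh values were tight and below all others, while the HT-Flx values lay within the WT-Veh range. On the log2 scale HT-Veh was 0.54 ± 0.099 (SE) below WT-Veh, and HT-Flx differed from WT-Veh by -0.053 ± 0.11. The WT-Flx mice, at 458, 450, 373 and 515 (449 ± 58.0), also overlapped WT-Veh, and HT-Flx differed from WT-Flx by -0.0083 ± 0.12. With the bulb score as covariate that difference was 0.25 ± 0.18. The scores of WT-Flx (6.57 to 10.28) and HT-Flx (5.62 to 6.40) did not overlap, so this fit compares the groups at no shared score. Without the 5 mice of high score the difference was 0.25, but only WT-Flx 3, at 373 the lowest of its group, was left in WT-Flx.

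Fbn2 (ENSMUSG00000024598, chr18:58008623-58210487, minus strand) was the gene of lowest level, at 9.64 normalized read counts per kb of exon in WT-Veh against 65.8 for Ccdc134, 135 for Sike1, 137 for Donson and 143 for Dolpp1. Its WT-Veh mice stood at 162, 68.5, 174 and 105 (127 ± 49.6 SD, n = 4), and its HT-Veh mice at 66.4, 73.3, 56.7 and 95.8 (73.1 ± 16.6). The HT-Flx mice stood at 131, 159, 134 and 128 (138 ± 14.2). HT-Veh overlapped WT-Veh through the single WT-Veh mouse at 68.5, and HT-Flx lay inside the WT-Veh range. The log2 differences were -0.73 ± 0.30 for HT-Veh against WT-Veh and 0.20 ± 0.27 for HT-Flx against WT-Veh, so the second was smaller than its error. It was -0.061 ± 0.21 without the WT-Veh mouse at 68.5 and 0.38 ± 0.27 without the one at 174, and 0.35 ± 0.27 without the one at 162. The WT-Flx mice spread most widely, at 63.5, 138, 142 and 239 (146 ± 72.1).

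Sike1 (ENSMUSG00000027854, chr3:102995708-103008459, plus strand) was read against a WT-Veh group with 1 mouse far from the rest. The WT-Veh mice stood at 675, 1710, 1554 and 1624 (1390 ± 481 SD, n = 4), and the HT-Veh mice at 1268, 1102, 1334 and 1222 (1232 ± 97.8). The HT-Flx mice stood at 1696, 1650, 1783 and 2058 (1797 ± 183). Apart from the mouse at 675, which had the highest bulb score of all (10.57), every WT-Veh mouse lay above every HT-Veh mouse. HT-Veh was -0.088 ± 0.26 from WT-Veh on the log2 scale with this mouse and -0.40 ± 0.078 without the mice high in bulb markers. HT-Flx was 0.45 ± 0.25 above WT-Veh with it and 0.14 ± 0.088 without it. Whether Sike1 passed above the WT-Veh level in HT-Flx or only reached it thus rested on that mouse. The WT-Flx mice stood at 1050, 2271, 1970 and 1283 (1643 ± 573) and overlapped every other group.

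Donson (ENSMUSG00000022960, chr16:91676808-91688770, minus strand) had its highest values in HT-Flx. The WT-Veh mice stood at 347, 458, 423 and 484.3 (428 ± 59.6 SD, n = 4), and the HT-Veh mice at 421, 405, 386 and 399 (403 ± 14.5). The HT-Flx mice stood at 547, 484.5, 585 and 525 (535 ± 42.1). HT-Veh lay within the WT-Veh range, and the lowest HT-Flx mouse stood just above the highest WT-Veh mouse. HT-Flx was 0.33 ± 0.12 above WT-Veh and 0.42 ± 0.11 above WT-Flx on the log2 scale, while HT-Veh was -0.077 ± 0.11 from WT-Veh. The WT-Flx mice, at 415, 374, 371 and 439 (399.8 ± 32.9), lay within the WT-Veh range.

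Ccdc134 (ENSMUSG00000068114, chr15:82127922-82142203, plus strand) had the narrowest gap between the heterozygous groups. The HT-Veh mice stood at 266, 283, 266 and 393 (302 ± 61.5 SD, n = 4) and the HT-Flx mice at 465, 476, 438 and 409 (447 ± 29.9), so the lowest HT-Flx value was 1.04 times the highest HT-Veh value. For the other genes that ratio was 1.15 (Donson) to 1.33 (Fbn2). The WT-Veh mice stood at 463, 279, 300.3 and 366 (352 ± 82.5). One of them, at 463, reached into the HT-Flx range, and HT-Veh overlapped WT-Veh. The log2 differences from WT-Veh were -0.21 ± 0.18 in HT-Veh and 0.37 ± 0.16 in HT-Flx. Without the WT-Veh mouse at 463 the first was -0.072 ± 0.15, and without HT-Veh 4, at 393, it was -0.35 ± 0.17. The WT-Flx mice stood at 282, 315, 307 and 449 (338 ± 75.1).

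**Figure D2:**
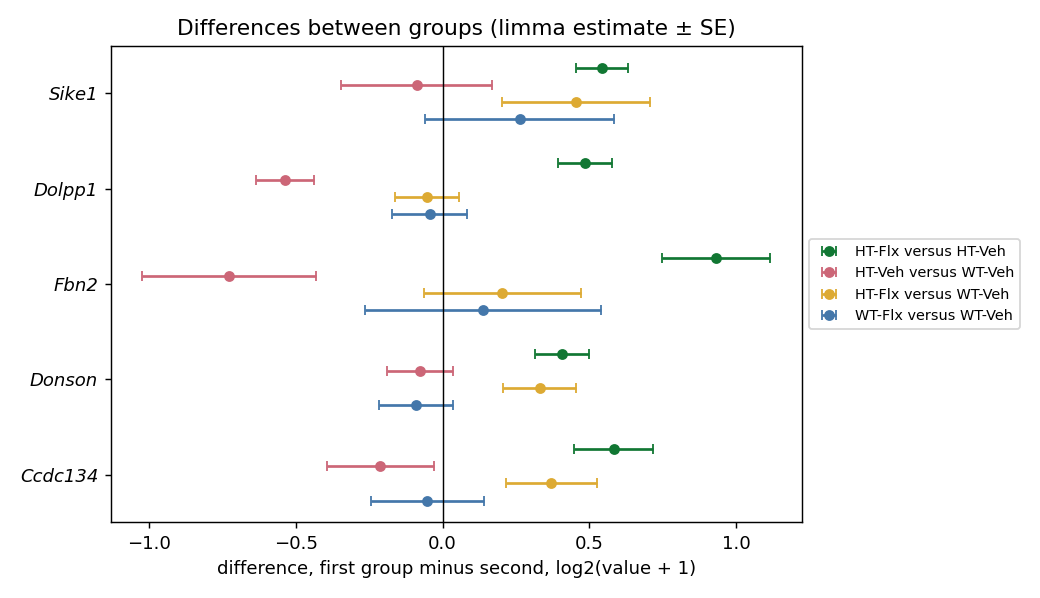
Log2 differences between groups, on the log2(value + 1) scale (horizontal axis, first group minus second), as limma estimates with SE bars, for the 5 genes. For Dolpp1 the HT-Veh difference from WT-Veh (-0.54) and the drug difference in heterozygotes (0.48) are of like size and opposite sign. Both contain the HT-Veh mean, with opposite sign, and the genes were chosen by the drug difference, so this likeness is a description only. For Donson the HT-Veh difference is -0.077 and HT-Flx lies 0.33 above WT-Veh.

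The genes next to this choice in order of p show where it stops. Mid1, a ubiquitin ligase of microtubules, held place 4 and is not among the 5 genes, although its HT-Flx mice (mean 539) also lay above its HT-Veh mice (mean 340) without overlap (0.69 ± 0.15). Sh3bp1, which encodes a GTPase-activating protein for Rac, held place 7, with means of 427 and 793 (0.80 ± 0.23). Ordered by size of the log2 difference instead, the 5 genes held places 5 (Fbn2), 25 (Ccdc134), 29 (Sike1), 36 (Dolpp1) and 41 (Donson) of the 157. For HT-Flx against HT-Veh over all genes, 0 of 16814 (0%) passed a limma adjusted p of 0.05. Before adjustment 516 had a p under 0.05, and the smallest adjusted p was 0.900.

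The drug comparison in wild-type mice used none of the mice behind the choice, and there none of the 5 genes changed detectably. In limma, 0 of 16833 genes (0%) passed an adjusted p of 0.05, with 707 at an unadjusted p under 0.05. The WT-Flx difference from WT-Veh was 0.26 ± 0.32 on the log2 scale for Sike1, 0.14 ± 0.40 for Fbn2, -0.044 ± 0.13 for Dolpp1, -0.052 ± 0.19 for Ccdc134 and -0.090 ± 0.13 for Donson, each with a limma adjusted p of 0.9997. Every difference was smaller than its SE, and the groups overlapped for all 5 genes, against 1.81% of genes higher and 1.09% lower without overlap. Exact two-sided permutation tests gave p = 0.571 for Sike1, 0.686 for Dolpp1, 0.8 for Fbn2, 0.486 for Donson and 0.857 for Ccdc134, where the smallest p that 4 against 4 mice allow is 0.0286. For Sike1 and Fbn2, a wild-type difference as large as that in heterozygotes lay within 2 SE of the estimate. Of these mice, WT-Veh 1 and WT-Flx 1, 2 and 4 had high bulb scores. Without WT-Veh 1 and WT-Flx 1 and 4, the difference was 0.38 ± 0.081 for Sike1 (limma adjusted p = 0.101) and -0.29 ± 0.11 for Donson. It was 0.37 ± 0.32 for Fbn2, -0.17 ± 0.14 for Dolpp1 and -0.0086 ± 0.14 for Ccdc134, and none of the 5 genes passed.

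Set side by side, the drug difference in heterozygotes exceeded that in wild-type mice by 0.53 ± 0.15 for Dolpp1, 0.50 ± 0.15 for Donson, 0.63 ± 0.24 for Ccdc134, 0.79 ± 0.47 for Fbn2 and 0.28 ± 0.36 for Sike1 on the log2 scale. These values contain the contrast by which the genes were chosen and were not tested. For Sike1 the value was smaller than its error. It was -0.088 ± 0.30 with the bulb score as covariate, where the wild-type difference alone was 0.59, and 0.60 ± 0.26 without WT-Veh 1, and without WT-Flx 1 it was 0.088 ± 0.35. For Fbn2 it was 0.43 ± 0.42 with sample quality weights, 1.14 ± 0.45 with the covariate and 0.45 ± 0.39 without WT-Flx 1.

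Mice of high bulb score were often at the ends of their groups in Ccdc134 and Sike1. On deviations from group means over the 16 mice, Pearson's r with the score was 0.82 for Ccdc134 and -0.65 for Sike1. It was 0.49 for Fbn2, -0.43 for Donson and 0.29 for Dolpp1, and these values were not tested. Ccdc134 was highest of its group in WT-Veh 1 (463, score 10.57), WT-Flx 4 (449, score 10.28) and HT-Veh 4 (393, score 8.98), yet lowest of its group in WT-Flx 1 (282, score 8.41). Sike1 was lowest of its group in WT-Veh 1 (675) and WT-Flx 1 (1050), yet highest of its group in WT-Flx 2 (2271, score 9.10). Fbn2 was highest of its group in WT-Flx 4 (239) and HT-Veh 4 (95.8), yet lowest in WT-Flx 1 (63.5). Donson was lowest of its group in WT-Veh 1 (347) and highest in WT-Flx 4 (439), and Dolpp1 was highest in WT-Flx 4 (515). All HT-Flx mice had low scores, 5.62 to 6.40. Without HT-Veh 4, the 1 heterozygote with a high score, the difference between HT-Flx and HT-Veh was 0.72 ± 0.10 for Ccdc134, 1.07 ± 0.17 for Fbn2, 0.54 ± 0.099 for Sike1, 0.48 ± 0.099 for Dolpp1 and 0.40 ± 0.10 for Donson (0.58, 0.93, 0.54, 0.48 and 0.41 with it). Without the WT-Veh mouse of high score, HT-Flx was 0.51 ± 0.12 above WT-Veh for Ccdc134 and 0.23 ± 0.10 above it for Donson.

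**Figure D3:**
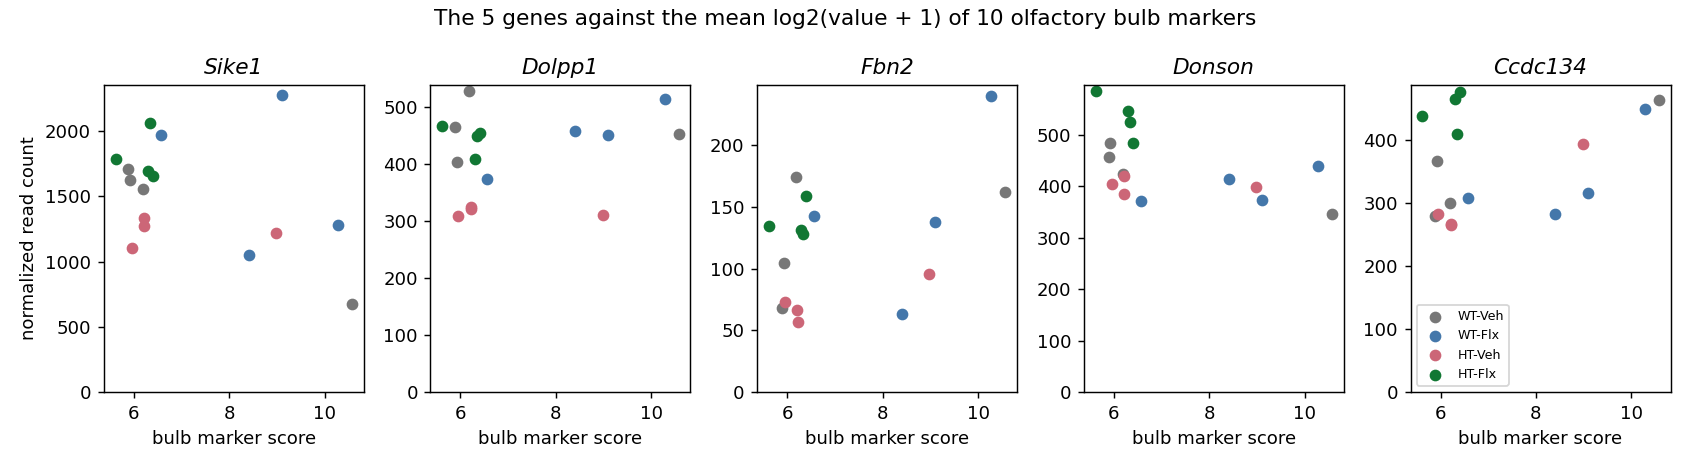
Normalized read counts of the 5 genes (vertical axis, linear, from 0) against the olfactory bulb score (horizontal axis, mean over 10 markers on the log2(value + 1) scale) in the 16 mice, coloured by group. All HT-Flx mice lie at scores of 5.62 to 6.40; the WT-Veh mouse at 10.57 has the lowest Sike1 (675) and the highest Ccdc134 of its group (463).

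The genes that work with these 5 in their pathways were then read from lists, and none passed the limma test in either direction in either drug comparison. As 0% of all genes passed in both comparisons, these counts of 0 say nothing particular to the pathways. Of 20 genes of TBK1 and IKK-epsilon signalling, 0 rose and 0 fell, with a median log2 difference of 0.035 in heterozygotes (14 of 20 positive) and -0.0039 in wild-type mice (10 of 20). The medians over all genes were 0.0030 and -0.00091. The gene of this list with the smallest p in heterozygotes was Tmem173, which encodes the DNA-sensing adaptor STING, with means of 119.6 in HT-Veh and 79.3 in HT-Flx (-0.64 ± 0.22, limma adjusted p = 0.99996). In wild-type mice it was Tank, a TBK1 adaptor (0.21 ± 0.093, limma adjusted p = 0.9997). Of 18 STRIPAK genes, 0 rose and 0 fell, with medians of 0.011 and 0.015 (11 of 18 positive in each). The smallest p belonged to Ppp2r1b, a phosphatase scaffold, in heterozygotes (0.23 ± 0.13) and to Stk26, a kinase, in wild-type mice (0.27 ± 0.13).

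Dolichol-linked N-glycosylation, the pathway of Dolpp1, had 31 genes tested of 32 listed, of which 0 rose and 0 fell, with medians of 0.015 in heterozygotes (16 of 31 positive) and 0.022 in wild-type mice (17 of 31). Stt3a, a catalytic subunit of the transferase that moves the sugar chain from dolichol to protein, had means of 1200 in HT-Veh and 958 in HT-Flx (-0.33 ± 0.12, limma adjusted p = 0.99996). In wild-type mice the smallest p belonged to Dolk, the kinase that makes dolichol phosphate (-0.19 ± 0.11). Of 22 tested genes of microfibrils and elastic fibres, 0 rose and 0 fell, and 6 of 22 (27.3%) had a positive difference in heterozygotes against 51.2% of all genes, with a median of -0.099. In wild-type mice 14 of 22 (63.6%) were positive against 49.8% of all genes, with a median of 0.038. Eln, the gene of elastin, had the smallest p in heterozygotes (-0.33 ± 0.15), and Efemp1, a fibulin gene, in wild-type mice (0.38 ± 0.18).

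For the DNA replication fork, 29 of 30 listed genes were tested, 0 rose and 0 fell, and the medians were 0.019 in heterozygotes (15 of 29 positive) and 0.017 in wild-type mice (16 of 29). Pold1, the catalytic subunit of DNA polymerase delta, had means of 204 in HT-Veh and 138 in HT-Flx (-0.54 ± 0.16, limma adjusted p = 0.99996). Chek1, a checkpoint kinase, had the smallest p in wild-type mice, with means of 31.9 in WT-Veh and 59.2 in WT-Flx (0.83 ± 0.29, limma adjusted p = 0.9997). Of 15 genes of ADA2-containing acetyltransferase complexes and 12 of the ERK cascade, 0 rose and 0 fell. Their medians in heterozygotes were -0.025 (6 of 15 positive) and 0.025 (9 of 12), and in wild-type mice 0.023 and -0.031. Yeats2 (0.21 ± 0.12) and the ERK scaffold gene Ksr1 (0.30 ± 0.13) had the smallest p in heterozygotes, and Supt20 (0.26 ± 0.17) and the ERK kinase gene Mapk3 (0.26 ± 0.14) in wild-type mice.

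**Figure D4:**
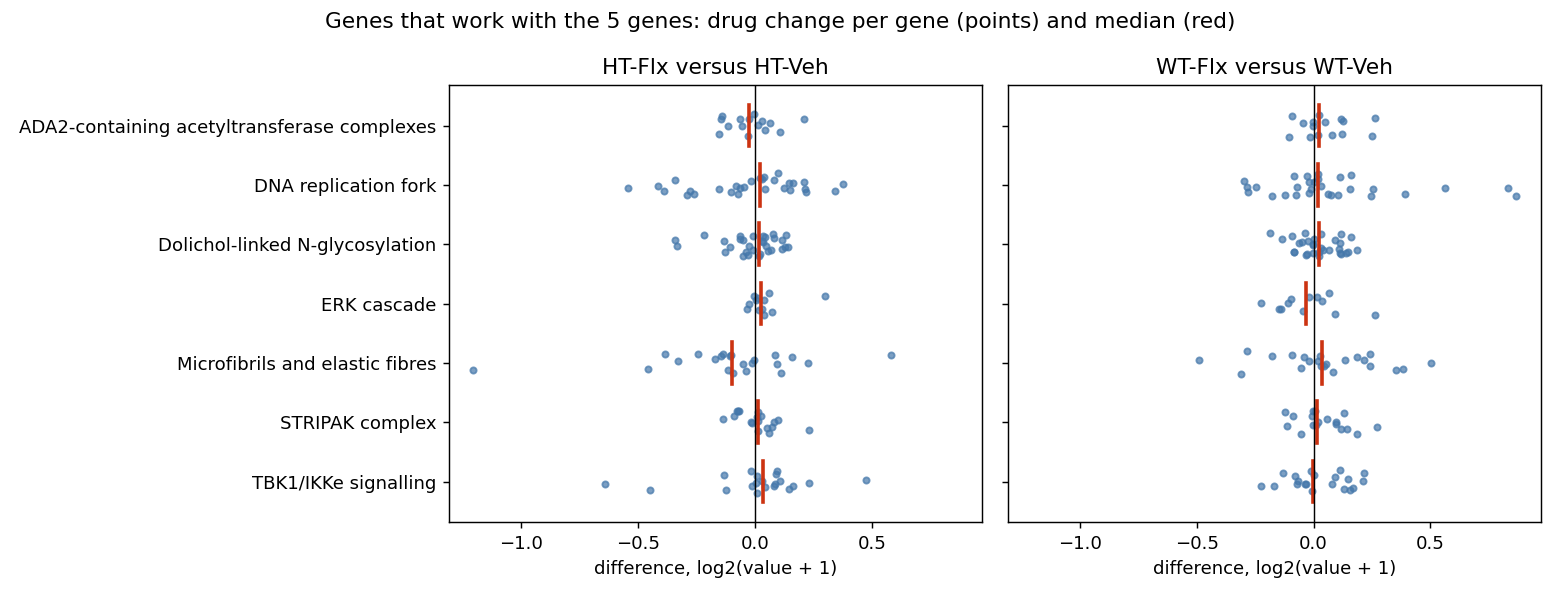
Log2 differences, on the log2(value + 1) scale (horizontal axis), of the genes in 7 pathway lists for the drug comparison in heterozygotes (left) and in wild-type mice (right); points are genes and red bars are list medians. No gene passed the limma test, and the medians lie between -0.099 (microfibrils and elastic fibres, heterozygotes) and 0.038 (the same list, wild-type mice).

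HT-Flx and HT-Veh overlapped in each neighbouring gene analysed. As only 0.934% of all genes were higher without overlap, this is no result about the neighbours. Crat, which overlaps Dolpp1 on the opposite strand, had means of 1289 in HT-Veh and 1267 in HT-Flx (-0.027 ± 0.089). Son, which overlaps Donson on the opposite strand and is far more abundant, had means of 11843 and 11466 (-0.051 ± 0.082). The labels name a stranded library kit, but whether the counting used strand is not given in the sources used here, so reads of such pairs may have been shared. Atp5o overlaps Donson on the same strand and Gm26507 overlaps Fbn2 on the opposite strand, and both were not analysed here. Slc12a2, on the lower side of Fbn2, differed by 0.066 ± 0.092, and Mei1, 1108 bases from Ccdc134, by -0.10 ± 0.16. Gm10785 lies 128 bases from Donson on the opposite strand and had means of 6.77 in HT-Veh and 6.97 in HT-Flx. The other neighbours were Tspan2 (Sike1), Miga2 and Gm16323 (Dolpp1), Isoc1 (Fbn2), Gart (Donson) and Srebf2 (Ccdc134).

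The genes with the most similar pattern over the 16 mice differed for each of the 5 genes. Likeness was measured by Pearson's r of log2(value + 1) among 17567 genes, and as the best of so many these values carry no test. Sike1 was closest to Cog5 (r = 0.90), Synj2bp (0.87) and Zdhhc9 (0.87). Dolpp1 was closest to Gm7331 (0.76), which had group means of only 1.39 to 8.71, Ankrd29 (0.76) and Plod3 (0.74). Fbn2 was closest to Ret, Dop1a and Cnksr3 (0.81 each). Donson was closest to Cisd2 (0.81), Apex2 (0.80) and Ppm1f (0.79), and Ccdc134 to Dse (0.84), Cish (0.79) and Taf1a (0.79). None of the 5 genes was among those named here for another, which among 17567 genes says little about their likeness. Between the 5 genes themselves, r was highest for Fbn2 with Ccdc134 (0.71), then for Dolpp1 with Fbn2 (0.63). It was lowest for Sike1 with Ccdc134 (-0.021). On deviations from group means these pairs stood at 0.70, 0.26 and -0.50. The values of r over the 16 mice contain the difference by which the genes were chosen and were not tested.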

How the data were processed

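RNA was measured by poly(A) RNA sequencing with a kit that the labels name as stranded in 16 mice. The authors estimated transcript abundance with Salmon 1.1.0 (quasi-mapping, GC bias correction) on GRCm38, imported gene values with tximport, and divided them by DESeq2 1.30.1 size factors. The submitters' processing notes name R 4.1.1. The deposited signal values are these normalized read counts for 18424 genes, of which 18411 matched a symbol in the GENCODE annotation or a further table of gene names. They are not whole multiples of a step, so depth is unknown and no count test was run; totals lay between 92.8% and 104% of their mean.

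Values were taken as log2(value + 1), so changes of low genes are understated. Genes that reached 10 in at least 4 mice of a comparison were fitted with limma 3.58.1 (R 4.3.3, eBayes with trend) and adjusted by the Benjamini-Hochberg method at 0.05. Levels per kb divide by the union of exon lengths. Genes named are the 5 genes, Arid1b, their neighbours (not all are reported here), the 3 most correlated genes of each, the gene of smallest p in each pathway list and the genes next to the 5 by p. The 5 genes, the lists and the tests were chosen with earlier results of these data known. The labels give no dam or litter, so p-values measure the spread between mice, some of which may be littermates, and not the spread between dams. Fluoxetine was given to dams, so effects of drug and dam cannot be told apart in the comparisons of Flx with Veh. Replicate numbers were checked for pairing and did not pair the mice.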

Additional observations from a re-analysis of the deposited data

Results flagged for a closer look

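Of 20 groups of 4 mice (5 genes in 4 groups), 2 held a mouse far from the rest of its group by Dixon's criterion, where chance gives about 1 in 20. Sike1 in WT-Veh had its lowest mouse at 674.7 normalized read counts (gap over range 0.849), the mouse with the highest olfactory bulb score. Ccdc134 in HT-Veh had its highest mouse at 393.4 (gap over range 0.864), the 1 heterozygote with a high bulb score. That mouse also had the highest striatum score of all (10.31). The part of bulb or striatal tissue in these 2 values was not tested.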

How the results depend on the processing

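For HT-Flx against HT-Veh, all 100 alternative values of the 5 genes kept a positive sign and moved by less than the spread between mice. The genes were chosen for having no overlap there, so leaving out mice could not turn the sign, and this is no support. The fits without the mice of high bulb score use the same mice here as the fit without HT-Veh 4. Over all genes, 0 passed the adjusted threshold in any fit, with 328 to 939 at an unadjusted p under 0.05. For HT-Veh against WT-Veh and for HT-Flx against WT-Veh, 98 of 100 values kept their sign in each. For HT-Flx against WT-Flx, 83 of 100 did, and for the drug change in HT minus that in WT, 134 of 135. The 2 that turned in HT-Veh against WT-Veh were Sike1 without WT-Veh 2 (0.041) and without WT-Veh 4 (0.016). In HT-Flx against WT-Veh they were Fbn2 without WT-Veh 2 (-0.061) and Dolpp1 without WT-Veh 3 (0.013).

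For WT-Flx against WT-Veh, 91 of 100 values kept their sign, and no gene of the 5 passed the threshold under any alternative run. The count of genes called rose from 0 to 12 with sample quality weights, to 1 with the bulb score as covariate, to 25 without WT-Veh 1, WT-Flx 1 and 4 and HT-Veh 4, and to 9 without WT-Flx 2 as well. The last alternative, added after seeing the data, leaves 1 WT-Flx mouse, assumed to vary like the others. Leaving out 1 mouse at a time gave 0 to 4, the 4 without WT-Veh 1. Ccdc134 turned to 0.11 with quality weights and Fbn2 to -0.092 with the covariate. Leaving out 1 mouse at a time gave log2 differences from -0.055 to 0.45 for Sike1 (negative without WT-Veh 1), -0.11 to 0.041 for Dolpp1 (0.021 without WT-Veh 3, 0.041 without WT-Flx 3), -0.15 to 0.48 for Fbn2 (-0.13 without WT-Veh 2, -0.15 without WT-Flx 4) and -0.20 to 0.089 for Ccdc134 (0.089 without WT-Veh 1, 0.027 without WT-Flx 1). The cause was not tested. The smallest limma adjusted p of any of these was 0.101, for Sike1 (0.38) without the 4 mice.

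With the replicate number as a block, 0 genes were called in either drug comparison (1237 at an unadjusted p under 0.05 in wild-type mice, 593 in heterozygotes). Same-numbered mice of the WT groups correlated in their deviations at -0.247 to 0.335 and each mouse matched its own number best in 1 of 4 cases, so the mice were not treated as paired. Depth is unknown and limits the low gene Fbn2 most.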
